A study of Mus musculus with 4 samples.

Results

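The let-7 family is the group of microRNAs (miRNAs) that share the let-7 seed, and miR-98 belongs to it by sequence. Its members were taken as the array names mmu-let-7a, mmu-let-7b, mmu-let-7c, mmu-let-7d, mmu-let-7e, mmu-let-7f, mmu-let-7g, mmu-let-7i and mmu-miR-98 (written below without the prefix for mouse), which were 9 of the 650 miRNA names and 18 of the 1857 probes on the array. The signals came from mouse embryonic fibroblasts (MEFs) of strain C57BL/6J, cultured without treatment, and RNA of each of 4 cultures was run on its own single-colour Agilent miRNA array. The knockout (KO) cells were Lats2-/- and lacked a kinase of the Hippo pathway, and the wild-type (WT) cells were Lats2+/+ and came from the same litter. KO replicates 1 and 2 were 1 clone at PDL 70 and 96, and WT replicates 1 and 2 were 1 other clone at PDL 68 and 90. PDL was taken to mean population doubling level, and the genotypes rest on the labels, since a miRNA array does not measure Lats2 mRNA. Genotype and clone cannot be told apart with 1 clone per genotype, and the p-values measure only the spread between 2 PDL of a clone.

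let-7 miRNAs repress mRNAs that pair with their seed, among them those of Hmga2, Ras and Myc family genes, and are known as brakes on growth and on the embryonic state. Their levels are low in pluripotent stem cells and rise as cells differentiate, and the RNA-binding protein Lin28 blocks the maturation of their hairpins. The mouse genome holds several let-7 hairpins, some of them in clusters with each other or with miRNAs of the miR-99, miR-100 and miR-125 families, so the same mature miRNA can come from more than one place.

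The mature sequences (RefSeq, build GRCm38.p6) are shown because the array tells the members apart by single bases. The capitals mark the seed, bases 2 to 8, counted from 1 at the 5′ end.
let-7a: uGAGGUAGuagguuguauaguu
let-7b: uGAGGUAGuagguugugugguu
let-7c: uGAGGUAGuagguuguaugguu
let-7d: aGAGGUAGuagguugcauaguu
let-7e: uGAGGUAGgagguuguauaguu
let-7f: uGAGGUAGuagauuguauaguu
let-7g: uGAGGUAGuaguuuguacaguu
let-7i: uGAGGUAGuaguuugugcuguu
miR-98: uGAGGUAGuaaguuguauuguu

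All 9 sequences were matched by name, were 22 bases long and had the seed GAGGUAG. In RefSeq, let-7k and miR-1961 had the same seed, but they had no name on the array and were not among the members. They differed from let-7a at 8 positions, all of them outside the seed. Relative to let-7a, let-7c carried A19G, let-7b carried A17G and A19G, let-7e carried U9G and let-7f carried G12A, with the let-7a base written first. let-7d carried U1A and U16C, let-7g carried G12U and U18C, and miR-98 carried G11A and A19U. let-7i was the member farthest from let-7a, with G12U, A17G, U18C and A19U. let-7b and let-7c were the members that carried A19G, and they differed from each other by 1 base.

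Each member had 2 probes of 18 to 22 bases on 10 spots each. All 18 probes were exact complements of the 3′ end of their miRNA and reached base 22. The longer probes of the members that the comparison of genotypes turned on, and that of let-7a, are shown 5′ to 3′, with capitals at the bases opposite positions where the miRNA differs from let-7a.
let-7a probe: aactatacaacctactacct
let-7b probe: aacCaCacaacctactacc
let-7c probe: aacCatacaacctactacc
let-7i probe: aacAGCacaaActactacctc
miR-98 probe: aacAatacaacTtactacctca
For 12 of the 18 probes the nearest other member of the family differed by 1 base, and for the let-7g, let-7i and miR-98 probes it differed by 2 bases. The let-7c probes were 1 base from both let-7a and let-7b. How much of a probe's signal came from other members was not tested.

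All 9 members were well above background on all 4 arrays. The cells carried the signals of fibroblasts, since 5 of 6 fibroblast and mesenchymal marker miRNAs were well above background on every array (miR-145 was not) and, of 28 markers of other cell types, the muscle miRNA miR-206 alone was. KO arrays had 157 and 161 names well above background and WT arrays 125 and 129. Signals are given as log2 of the brightest probe after each array was scaled by its 75th percentile. With bulk RNA, a change in the number of expressing cells and a change in RNA per cell cannot be told apart.

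let-7b and let-7c were about 2-fold higher in KO, let-7i was lower in KO, and miR-98 was moderately higher, while let-7a, let-7d, let-7e, let-7f and let-7g were not called. Of the 9 members, 3 were called higher and 1 lower with limma (adjusted p under 0.05), against 43.4% and 14.5% of the 159 miRNAs tested (57.9% in either direction, and 52.2% of the 115 miRNAs that were, like all members, well above background on all 4 arrays). The 43.4% includes miRNAs that were tested through KO alone, and the shares by direction were not counted over the 115. The median log2 change was 0.00 over the members and 0.31 over all 159, or 0.17 over the 115 that were above background on all 4 arrays. Both KO values lay on one side of both WT values for 6 of the 9, against 79.9% of the 159. The shares of calls are therefore not far from those of all tested miRNAs, and the members' changes differed mainly in direction and size from one member to the next.

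let-7c gave log2 signals of 10.23 and 10.30 on the KO arrays against 9.20 and 9.18 on the WT arrays. Its change was 1.07 ± 0.06 (SE, n = 2 per group), or 2.10-fold, with an adjusted p of 0.0017 in limma. let-7b gave 9.93 and 10.03 on the KO arrays against 8.94 and 9.01 on the WT arrays (log2), a change of 1.01 ± 0.07 or 2.02-fold (limma, adjusted p = 0.0027). Every KO array was above every WT array for both miRNAs by far more than the distance between the arrays of a genotype.

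let-7i changed the other way, from log2 signals of 11.64 and 11.68 on the WT arrays to 10.91 and 10.99 on the KO arrays. It was 1.63-fold lower in KO (log2 -0.71 ± 0.07, limma, adjusted p = 0.0052). The groups did not overlap.

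miR-98 was the dimmest member, at log2 7.09 and 7.12 on the KO arrays against 6.68 and 6.45 on the WT arrays. It was 1.45-fold higher in KO (log2 0.54 ± 0.10, limma, adjusted p = 0.026). The groups did not overlap, but the distance between the WT arrays was larger than for the other members, and the call was lost when KO replicate 1 (adjusted p = 0.178) or KO replicate 2 (adjusted p = 0.178) was left out, with PDL class as a block (adjusted p = 0.059), with median scaling (log2 0.14, adjusted p = 0.218), with no filter on dim miRNAs (adjusted p = 0.162) and in the methods' t-test, which asks for a 2-fold change (after Benjamini-Hochberg adjustment alone, adjusted p = 0.083). With quantile normalization the change of miR-98 was 0.21, relative to the family mean 0.35, with the scanner's total signal 0.24 and with normexp correction 0.30, the last of these still called.

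The other 5 members were close to equal in both genotypes under the scaling as reported. let-7a gave log2 signals of 10.97 and 11.05 on the KO arrays against 10.96 and 11.05 on the WT arrays, a change of 0.00 ± 0.07 with a 95% interval of -0.22 to 0.22. With quantile normalization, however, let-7a was called higher in KO (0.35, limma, adjusted p = 0.0022), outside that interval. let-7e (log2 9.70 and 9.72 in KO, 9.66 and 9.83 in WT) had a change of -0.04 and an interval of -0.30 to 0.23. let-7g (log2 9.56 and 9.48 in KO, 9.49 and 9.40 in WT) had a change of 0.07 and an interval of -0.14 to 0.29. The genotypes overlapped for these 3, and the intervals, which hold for that scaling, do not reach the changes of let-7b and let-7c. let-7d (log2 9.90 and 9.90 in KO, 9.99 and 9.99 in WT) and let-7f (11.37 and 11.38 in KO, 11.53 and 11.48 in WT) did not overlap between genotypes. Their changes of -0.10 ± 0.06 and -0.13 ± 0.06 did not pass the test (limma, adjusted p = 0.224 and 0.140). The changes of let-7d and let-7f were called lower with median scaling (-0.50 and -0.53), with the scanner's total signal (-0.39 and -0.41) and relative to the family mean (-0.29 and -0.32). let-7d was also called lower with no filter (adjusted p = 0.0033) and in the methods' t-test after Benjamini-Hochberg adjustment (adjusted p = 0.0027), at the same change of -0.10.

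**Figure D1:**
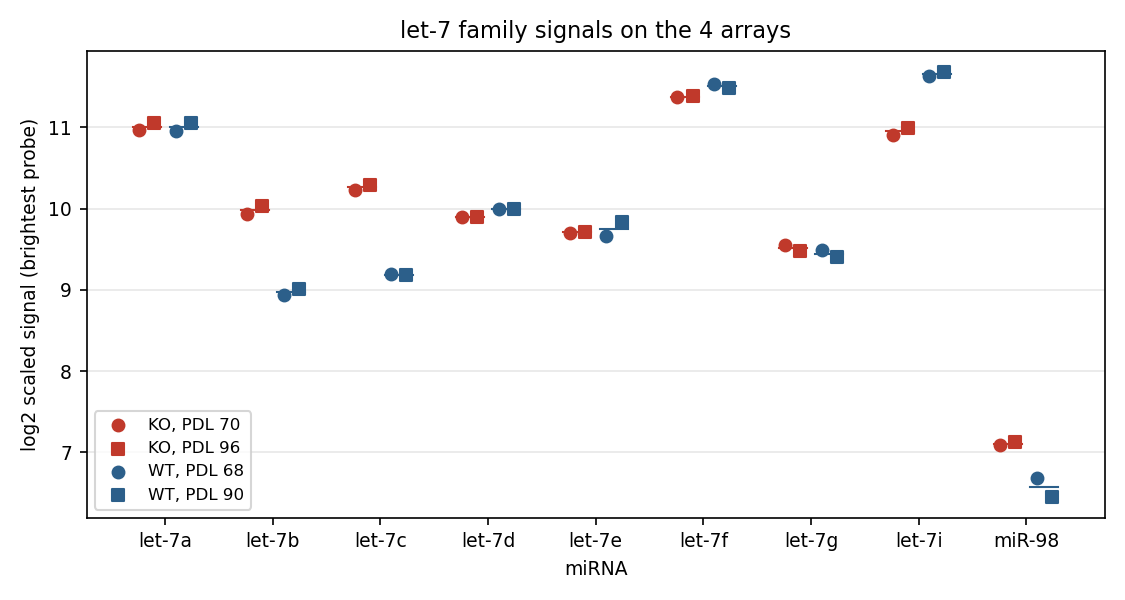
Log2 scaled signal of the brightest probe (vertical axis) for each of the 9 miRNAs on the KO (red) and WT (blue) arrays, circles for the lower and squares for the higher PDL, with horizontal lines at the group means. The KO points of let-7b and let-7c lie about 1 log2 unit above the WT points, those of let-7i lie below them, and those of let-7a, let-7e and let-7g overlap with them.

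Because a scale factor moves all members of an array together, each member was also set against the mean log2 signal of the 9 on its own array. Relative to that mean, let-7c was higher by 0.88 ± 0.06 and let-7b by 0.82 ± 0.07 (log2, limma, adjusted p = 0.0023 and 0.0035). let-7i was lower in KO by the same measure, at -0.90 ± 0.06 (limma, adjusted p = 0.0024). The family mean includes the members that moved, so these values are not independent of each other.

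Ratios within an array need no scale factor at all. The log2 ratio of let-7c to let-7i was -0.68 and -0.70 on the KO arrays against -2.44 and -2.50 on the WT arrays, which is a 3.44-fold difference between the genotypes and the largest of the 36 pairs. The ratio of let-7b to let-7c was -0.29 and -0.26 on the KO arrays against -0.26 and -0.17 on the WT arrays. The pair let-7b and let-7c thus kept nearly the same ratio, with a difference of -0.06 between the genotypes. The ratio of let-7a to let-7c differed by -1.07. Each pair is 1 base apart, at different bases (G17A from let-7b to let-7c, A19G from let-7a to let-7c). How far a probe reads the other member of its pair was not tested. Over the 36 pairs the difference in ratio ran from 0.04 to 1.78 in size, and KO and WT did not overlap in 31. The pairs share members and are not independent, and the same count over pairs of all tested miRNAs was not made. Single miRNAs already did not overlap in 79.9% of the 159.

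The brightness of different probes does not give the abundance of different miRNAs, since both probes of 1 miRNA differed by up to 1.87 on the log2 scale (let-7f, mean of 4 arrays). As an order of brightness only, let-7f, let-7a and let-7i were the brightest members in KO, followed by let-7c, let-7b, let-7d, let-7e, let-7g and miR-98. let-7a and let-7i overlapped in KO (log2 means of 11.01 and 10.95), and no other neighbours in that order did. In WT the order was let-7i, let-7f, let-7a, let-7d, let-7e, let-7g, let-7c, let-7b and miR-98, with no overlap between neighbours. let-7c stood at place 4 of 9 on both KO arrays and at place 7 on both WT arrays, and let-7i at place 3 and at place 1. With the scanner's total signal per miRNA, let-7f was first on KO replicate 1 and let-7i on KO replicate 2, and let-7b and let-7c changed places between the WT arrays.

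The summed signal of the 9 members was nearly equal in both genotypes, reaching 11419 and 11782 units on the KO arrays against 11862 and 12060 on the WT arrays. The difference of the sums was -0.04 on the log2 scale, and it was 0.16 without scaling, 0.10 with quantile normalization and -0.45 with median scaling, so its direction depends on the scale factor. let-7b and let-7c together made up 19.1% and 19.6% of the sum in KO against 9.09% and 9.07% in WT. let-7i made up 16.8% and 17.3% in KO against 26.8% and 27.2% in WT, while let-7a and let-7f together made up 40.7% on both KO arrays and 41.8% and 41.3% on the WT arrays. These shares weight each member by the brightness of its probe and are compared between arrays only.

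**Figure D2:**
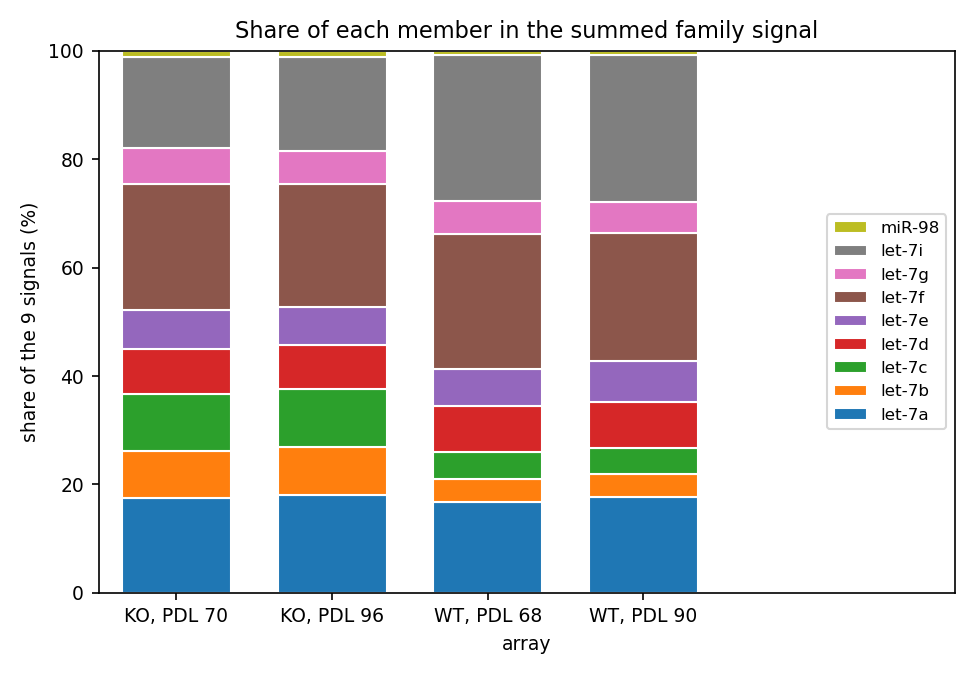
Share of each member in the summed signal of the 9 members (vertical axis, %) on each of the 4 arrays, from the brightest probe of each. The segments of let-7b and let-7c together are 19.1% and 19.6% in KO against 9.09% and 9.07% in WT, and that of let-7i is narrower in KO.

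Both probes of each member were read separately to ask whether they move alike. Among the 18 probes, 6 were called higher (both of let-7b, let-7c and miR-98), 2 lower (both of let-7i) and 10 were not called, against 40.3% higher and 12.8% lower (53.1% in either direction) of the 273 probes tested. The shorter let-7c probe gave log2 8.77 and 8.84 in KO against 7.75 and 7.73 in WT, a change of 1.06 ± 0.07 beside 1.07 ± 0.07 for the longer probe. The shorter let-7b probe gave log2 9.16 and 9.23 in KO against 8.19 and 8.19 in WT, and was 2.01-fold higher beside 2.02-fold for the longer one. The probes of let-7b and let-7c thus gave nearly the same change at different brightness. The shorter probe of a member is the longer one without 1 base, so the probes are not independent readings.

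The shorter let-7i probe gave log2 10.48 and 10.47 in KO against 11.10 and 11.08 in WT, and its change of -0.62 ± 0.07 was smaller than the -0.71 ± 0.08 of the longer probe. The shorter miR-98 probe gave log2 6.78 and 6.86 in KO against 6.39 and 6.24 in WT, a change of 0.50 ± 0.09 beside 0.54 ± 0.11. The changes of both probes differed by 0.01 to 0.09 over the 9 members and had the same sign for 8 of them. The exception was let-7a, at -0.03 ± 0.07 and 0.00 ± 0.08. The longer probe was the brighter one on every array and for every member, by 0.21 to 1.91 on the log2 scale, and the coefficient of variation between the spots of a probe on an array was 2.83% to 27.4%.

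**Figure D3:**
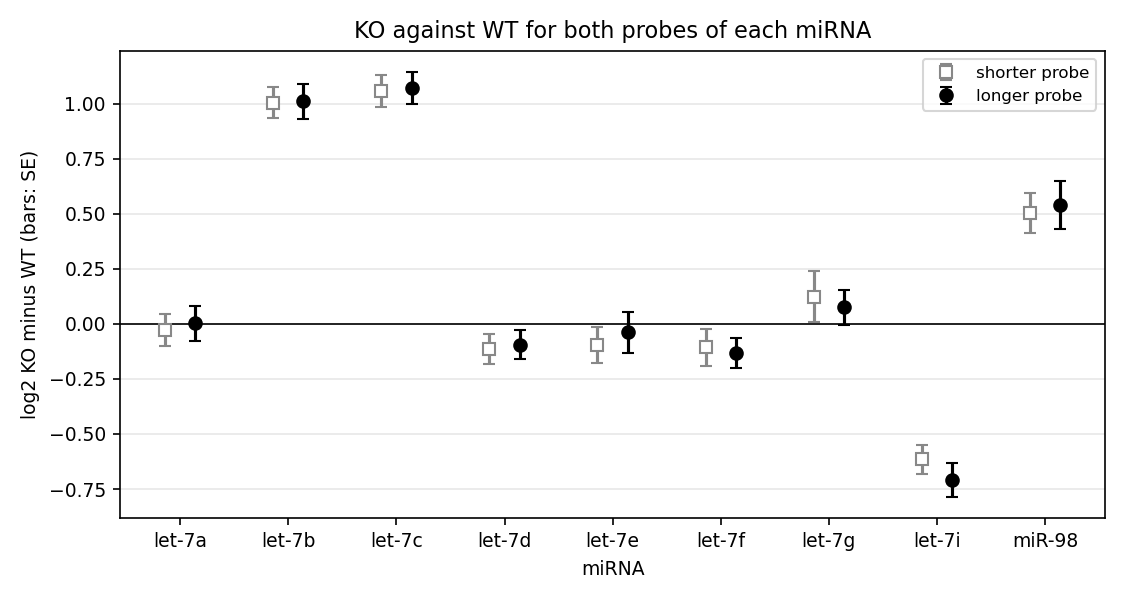
Log2 change from WT to KO (vertical axis) of the shorter probe (open squares) and the longer probe (filled circles) of each miRNA, with bars of 1 SE from the limma fit over probes. Both probes lie near 1 for let-7b and let-7c and below -0.6 for let-7i, and the points of a pair differ by 0.09 at most.

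The files placed the members' probes at 12 positions on mm9. let-7b (chr15:85537759-85537776), let-7d (chr13:48631400-48631417), let-7e (chr17:17967334-17967351), let-7g (chr9:106081179-106081198), let-7i (chr10:122422703-122422722) and miR-98 (chrX:148347773-148347793) had 1 position each, and let-7a, let-7c and let-7f had 2. A position given alone was 1 base narrower than its probe. let-7d, let-7i and the chromosome 13 positions of let-7a and let-7f were on the minus strand and the others on the plus strand. Gene names at the hairpins are from RefSeq (GRCm38.p6), used for names only.

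The let-7c probe matched chr15:85537049-85537067, 691 bases before let-7b, and chr16:77599920-77599938. On chromosome 16, miR-99a lies 713 bases before let-7c, and miR-125b-5p lies 46590 bases after it. The hairpins of let-7b and of the chromosome 15 copy of let-7c lie in the long noncoding RNA gene Lncppara, and that of the chromosome 16 copy overlapped no other annotated gene. The array cannot tell the copies of let-7c apart by the mature strand. Their passenger strands, the other arms of the hairpins, did not help here. let-7c-1* was below background on every array, and let-7c-2* had no probe under its own name. Of the neighbours, let-7b at chromosome 15 was higher by 1.01. miR-99a at chromosome 16 was higher in KO, with an approximate lower bound of 1.88-fold on the mean of the KO arrays under the scaling as reported. miR-99a was at log2 5.31 and 4.36 in KO and was not well above background in WT (3.08 and 2.98, limma, adjusted p = 0.030). It entered the test through KO alone, so its p rests on WT values that were not well above background. The bound sets the mean of KO against the lowest signals well above background on the WT arrays (log2 3.89 and 3.95). KO replicate 2 alone, at 4.36, was closer to these signals, so the bound does not hold for each KO array. A miRNA that was not well above background could also read higher than them, as let-7b* did on WT replicate 2 (log2 4.12). The bound is therefore approximate. The call of miR-99a was lost without WT replicate 1 (adjusted p = 0.086) or WT replicate 2 (adjusted p = 0.080), with no filter on dim miRNAs (0.230) and with median scaling (0.055) or quantile normalization (0.238).

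miR-125b-5p, which represses many growth and apoptosis genes, has copies on chromosomes 16 and 9 that the array does not tell apart. It was lower in KO, at log2 12.54 and 12.53 against 13.08 and 13.11 in WT (-0.56 ± 0.06, limma, adjusted p = 0.0060). On chromosome 9, miR-100 lies 5275 bases before one of the let-7a positions (chr9:41344817-41344836), and both hairpins lie in the noncoding gene Mir100hg. The chromosome 9 copy of miR-125b-5p lies 45191 bases after that let-7a position. miR-100 was lower in KO (log2 7.38 and 7.42 against 7.74 and 8.01 in WT, -0.47 ± 0.12, limma, adjusted p = 0.045), a call that was lost without KO replicate 1 (adjusted p = 0.256), KO replicate 2 (0.227) or WT replicate 2 (0.053), and with quantile normalization (0.076) or no filter (0.261). let-7a itself had a change of 0.00, and its second position (chr13:48633562-48633581) lies 335 bases from let-7f, with let-7d 1788 bases farther.

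On chromosome 17, miR-99b, let-7e and miR-125a-5p lie within 154 and 435 bases of each other in the protein-coding gene Spaca6. None of these was called, with changes of 0.07 ± 0.08, -0.04 ± 0.09 and 0.05 ± 0.07. On chromosome X, miR-98 lies 855 bases from a let-7f position (chrX:148346897-148346917), both in Huwe1, a ubiquitin ligase gene. miR-98 was higher by 0.54 and let-7f had a change of -0.13, but the let-7f probe also reads the chromosome 13 copy. The single-copy members let-7g, in Wdr82, and let-7i, with no overlapping gene, had changes of 0.07 and -0.71.

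**Figure D4:**
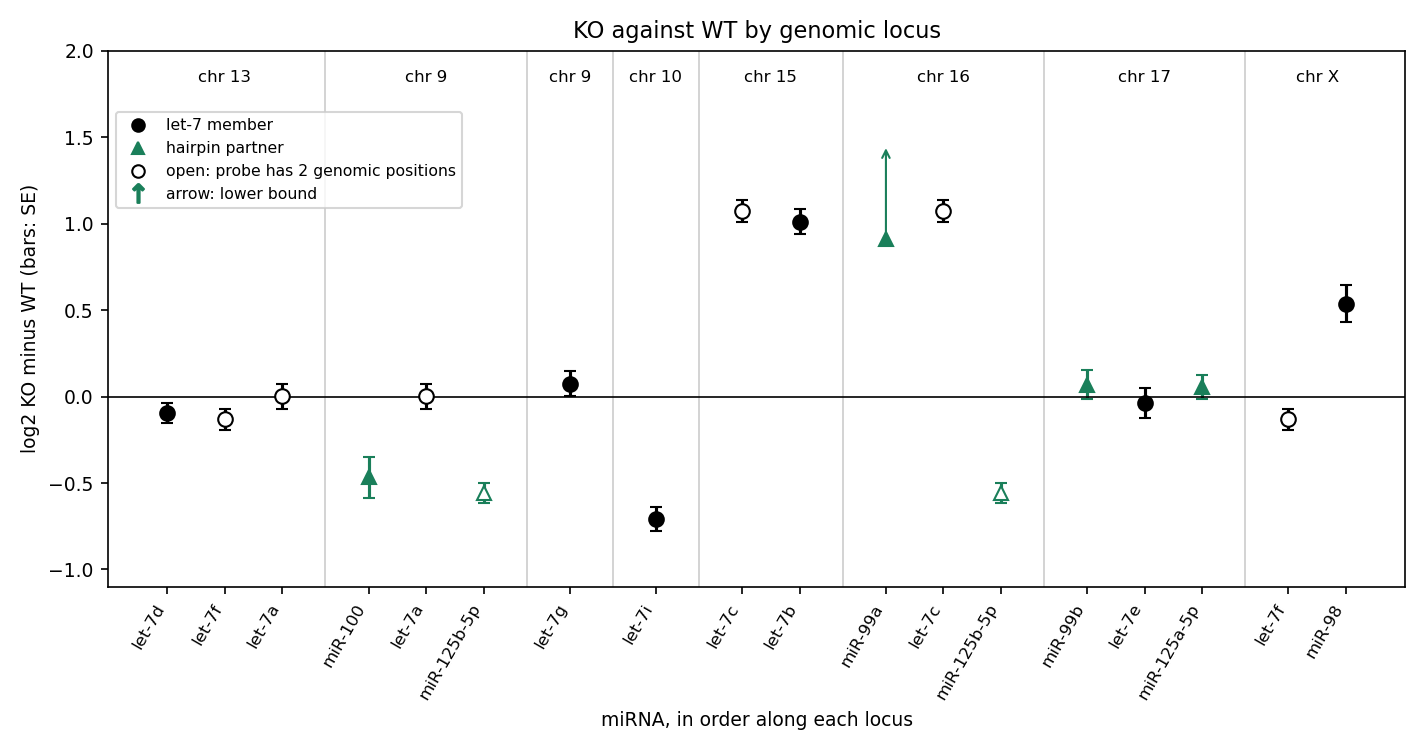
Log2 change from WT to KO (vertical axis, bars 1 SE from limma) of the let-7 members (circles) and of the miRNAs near them (triangles). Points are grouped by chromosome in mm9 order, with open symbols where a probe has 2 positions. An arrow starts at the approximate lower bound of miR-99a, taken on the mean of the KO arrays. let-7c and let-7b lie near 1 on chromosome 15, the miRNAs of chromosome 17 lie near 0, and miR-99a and miR-125b-5p lie on opposite sides of 0 around let-7c on chromosome 16.

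The list of passenger strands, hairpin partners and miR-202, which older lists place in the family, held 21 names, of which 18 were on the array and 6 could be tested. Of these, 1 was called higher (miR-99a, tested through KO alone) and 2 lower (miR-100 and miR-125b-5p), which is 3 of 6 against 57.9% of all 159, with a median log2 change of 0.06 against 0.31 for all 159. miR-202-3p gave log2 6.38 and 5.98 in KO against 6.02 and 6.10 in WT, a change of 0.12 ± 0.17. None of the 7 passenger strands on the array could be tested. let-7d* was well above background on 1 array (WT replicate 2, log2 4.60), and the other 6 were not on any.

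The higher and the lower PDL of the clones were also set against each other, in a fit that held genotype as a covariate. Of the 159 miRNAs, 0 (0%) were called with limma, 8 had an unadjusted p under 0.05, and none of those was a let-7 member. The members' changes ran from -0.09 to 0.10 with adjusted p-values of 0.826 to 0.996. From the lower to the higher PDL, 4 members rose in value in both clones (let-7a, let-7b, let-7e and let-7i), let-7g fell in value in both, and the other 4 moved in opposite directions. The fit left 1 residual degree of freedom beside the spread shared across miRNAs, so it could miss changes of this size.

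The miRNAs most like let-7c across the 4 arrays, outside the family and its partners, were miR-193b, miR-152 and miR-148b, at Euclidean distances of 0.158, 0.234 and 0.292 between log2 signals centred on their own means. Their log2 changes were 1.17, 0.89 and 0.96. The miRNAs most like let-7i were miR-16, miR-15a and miR-23b, at distances of 0.055, 0.087 and 0.142 and with changes of -0.68, -0.78 and -0.61. The distances were taken over 101 candidates and mainly rank the size of the difference between KO and WT, since 4 arrays give few other features.

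The size of every change depended on the scale factor. The median of all tested miRNAs was 0.31 as reported, 0.52 without scaling, 0.12 with quantile normalization, 0.11 with normexp correction, 0.04 with the scanner's total signal and -0.09 with median scaling. let-7b and let-7c were called higher under all 14 other settings and when any 1 array was left out, with log2 changes of 0.61 to 1.22 and 0.67 to 1.28. let-7i was called lower when any 1 array was left out and under 13 of the 14 settings, with changes of -1.11 to -0.44. It was not called in the methods' t-test because that asks for a fold change of 2.

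**Figure D5:**
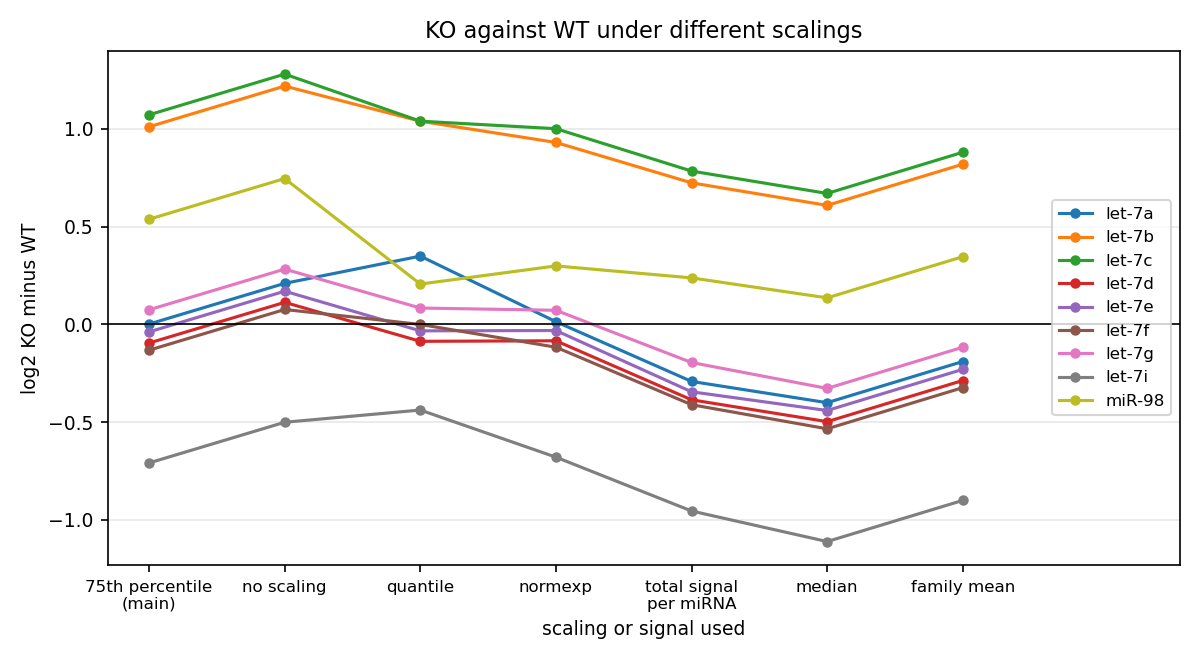
Log2 change from WT to KO (vertical axis) of each miRNA under the scaling as reported and 6 others (horizontal axis; lines only join the values of a miRNA). let-7b and let-7c stay the highest and let-7i the lowest under each, and the 5 members near 0 move from above to below 0 with the scale factor.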

How the data were processed

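Total RNA of 4 MEF cultures was hybridised to Agilent mouse miRNA arrays. Per the file headers, the authors used Agilent Feature Extraction 10.5.1.1, and the deposited spot intensity is background-subtracted, linear and not normalized between arrays. The deposited files also hold raw intensity, a total per miRNA and other columns of flags (0 or 1) for background, outliers and saturation. The series matrix holds the same intensity, within 0.495% of the scanner values (column medians -0.585, -0.581, -2.01 and 0.595 units).

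Control and outlier spots were left out, the other spots of a probe averaged, and each array scaled by the 75th percentile of the 192 probes that all 4 arrays had well above background (531, 562, 488 and 458 units, KO then WT). Before taking log2, signals under 1 unit were raised to 1. A probe was well above background where more than 0.5 of its spots were flagged so, and a miRNA was represented by its brightest probe. The 159 miRNAs (and 273 probes) above background on both arrays of a group were tested with limma 3.58.1 in R 4.3.3, two-sided, with Benjamini-Hochberg adjustment over all of them. The script was tested on simulated data. An exact permutation test of 2 against 2 arrays cannot go below p = 0.333. All arrays shared 1 slide and 1 scan. No miRNA spot was saturated. Precision is limited by having 2 arrays in each group.

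The text names all members, the tested names of the partner list, and the 3 miRNAs nearest to let-7c and let-7i. Members, lists and tests were chosen with earlier results of these data known. Alternatives covered scaling, background correction, probe summary, filters, PDL class as a block, the methods' t-test and leaving out each array.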

Additional observations from a re-analysis of the deposited data

Results flagged for a closer look

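For 4 members the single step from the lower to the higher PDL went in opposite directions in the KO and the WT clone. The difference between the log2 steps (KO step minus WT step) was 0.26 for miR-98, 0.087 for let-7c, 0.066 for let-7f and -0.0041 for let-7d. There was 1 step per genotype, so the difference was not tested. The steps of let-7c were 0.07 in KO and -0.02 in WT, and those of miR-98 were 0.04 and -0.22.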

How the results depend on the processing

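The number of members called lower was 1 as reported, 3 with median scaling, 3 relative to the family mean, 3 with the scanner's total signal, 2 with no filter, 0 in the methods' t-test at 2-fold and 2 in that t-test after Benjamini-Hochberg adjustment. The number of probes called lower was 7 with median scaling. In the list of partners, the number called higher was 0 with median scaling, quantile normalization or no filter and 0 to 1 when 1 array was left out (0 without WT replicate 1 or WT replicate 2), and the number called lower was 1 with no filter and 1 to 3 when 1 array was left out (1 without KO replicate 1, KO replicate 2 or WT replicate 2, and 3 without WT replicate 1).

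Members near 0 changed sign. let-7a was called higher at 0.35 with quantile normalization, as was its longer probe (adjusted p = 0.0022 and 0.0054), and was at -0.40 with median scaling, -0.19 relative to the family mean, -0.013 with the mean of its probes and -0.29 with the total signal, and at -0.045 to 0.049 when 1 array was left out. let-7g was at -0.33 with median scaling, -0.12 relative to the family mean and -0.19 with the total signal. Without scaling let-7d was at 0.11, let-7e at 0.17 and let-7f at 0.076, and let-7e was at -0.12 to 0.048 when 1 array was left out. Among partners, miR-99b was called lower at -0.33 (adjusted p = 0.040) and miR-125a-5p was at -0.35 with median scaling, and miR-99b ran from -0.013 (without WT replicate 2) to 0.15 when 1 array was left out. miR-202-3p was at -0.29 with median scaling, -0.52 with quantile normalization (called lower, adjusted p = 0.042) and ran from -0.083 (without KO replicate 1) to 0.31 when 1 array was left out. With median scaling the shorter let-7g probe (A_54_P2249) was at -0.28, the longer one (A_54_P2250) at -0.33 and the longer let-7a probe (A_54_P2466) at -0.40. In the comparison of PDL, let-7d was at -0.044 with quantile normalization and let-7f at 0.057 with median scaling. The cause of these changes was not tested beyond the shift of all miRNAs with the scale factor.

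Scaling by the 75th percentile over all probes was not run because that percentile was -0.10 units on WT replicate 1. With no filter, 650 names entered the fit in place of 159 and most had no spread within the groups, so limma gave its values there with a warning. The labels number no replicates, and arrays were paired only by PDL class: that block ended the call of miR-98 and of no other member. Of the 7 passenger strands on the array, 6 were not well above background on any array, which limits what can be said of them.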
